A study of Mus musculus with 27 samples.

Results

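The 9 genes described here carry dietary carotenoids and vitamin A through the intestinal lining: Bco1, Isx, Scarb1, Rbp2, Lrat, Retsat, Rdh7, Aldh1a1 and Dgat2. They are 9 of the 55401 genes in the deposited table, and all 9 were among the 11118 genes tested. The set was picked by gene name, for the Isx, Bco1 and Scarb1 axis and for retinol handling, after the low level of Bco1 at 24 h after 15 Gy had been seen in these same libraries. Values in that contrast are therefore given as a description, with no p-value, and its counts of called genes are printed without being read. Bco1 passed the filter on low values, an FPKM no lower than 1 in 3 libraries or more, through 8 libraries only, all of them from the 15 Gy 6 h, CBLB502 and control groups, so its being tested at all depended on the groups in which it was high.

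Intestinal RNA came from wild-type male C57BL/6 mice, given as 6 to 8 weeks old, and the intestinal segment was not stated. Mice received 60Co gamma rays (72 R/min) at 6 Gy, with sampling at 6 h or 24 h, or at 15 Gy, with sampling at 6 h, 24 h or 3 d. CBLB502, a flagellin-derived activator of Toll-like receptor 5 studied as a radioprotectant, was injected into the peritoneum at 0.2 mg/kg, alone or with 6 Gy or 15 Gy, and those 3 groups were sampled at 24 h. It was given 0.5 h before 15 Gy according to the design text, while its timing relative to 6 Gy was not stated. The control samples are labelled as not treated, with no sampling time, whereas the design text names PBS as the control for CBLB502. Whether the control mice were injected is therefore unknown, which bears on every comparison of a CBLB502 group with control. Each of the 9 groups held 3 libraries, with total counts of 57.4 to 87.1 M per library. No label says that the 3 libraries of a group came from separate mice, and each p-value therefore reflects only how much these libraries varied.

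Vitamin A enters the gut wall either as preformed retinol or as beta-carotene, which is taken up by the scavenger receptor SCARB1 and cleaved to retinal by BCO1. Retinal is reduced to retinol, held by the cellular binding protein RBP2, esterified by LRAT and exported in chylomicrons, while a small share is oxidised to retinoic acid. Retinoic acid induces the homeobox repressor ISX in intestinal epithelium, and ISX is known to repress both Bco1 and Scarb1, which closes a feedback loop.

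Promoter sequence is shown for the cleavage enzyme, for its repressor and for the most abundant member, because the results turn on the first 2 and Rbp2 is the abundant carrier of retinol. Each line gives the 250 bases up to the annotated start in RefSeq on GRCm38.p6, 5′ to 3′ on the plus strand, at chr8:117095615-117095864 for Bco1, chr8:74872924-74873173 for Isx and chr9:98490287-98490536 for Rbp2. Capitals mark the nuclear receptor half-site AGGTCA and the TATA motif TATAAA, searched on both strands, so that a half-site on the other strand reads TGACCT.
Bco1: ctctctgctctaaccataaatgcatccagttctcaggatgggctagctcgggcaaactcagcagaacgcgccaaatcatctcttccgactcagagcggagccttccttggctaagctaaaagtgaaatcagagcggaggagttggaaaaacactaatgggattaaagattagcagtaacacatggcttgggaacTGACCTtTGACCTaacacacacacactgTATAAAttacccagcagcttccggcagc
Isx: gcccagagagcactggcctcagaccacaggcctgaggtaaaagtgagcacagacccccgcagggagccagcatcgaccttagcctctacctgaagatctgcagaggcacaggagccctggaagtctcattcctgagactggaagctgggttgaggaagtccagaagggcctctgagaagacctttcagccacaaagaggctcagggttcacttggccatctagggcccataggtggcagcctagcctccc
Rbp2: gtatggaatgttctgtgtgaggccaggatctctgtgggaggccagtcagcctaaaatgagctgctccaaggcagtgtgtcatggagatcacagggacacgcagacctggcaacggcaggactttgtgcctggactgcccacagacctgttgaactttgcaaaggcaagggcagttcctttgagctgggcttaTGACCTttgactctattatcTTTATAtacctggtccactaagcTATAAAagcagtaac
The Bco1 window holds 2 half-sites 1 base apart, which begin 56 and 49 bases before the start, and a TATAAA at 28 bases. Of 32851 mouse promoter windows of that length, 14.0% hold at least 1 AGGTCA and 0.0335% hold the pair with 1 base between them. The Rbp2 window holds 1 half-site at 58 bases and TATAAA at 38 and 15 bases, a motif found in 12.4% of windows. Its RefSeq start lies 4422 bases from the gene start in the deposited table. The Isx window holds neither motif. The homeobox core TAATTA, present in 4.84% of windows, was not found in the windows of the 7 members that had an entry, which were Bco1, Isx, Rbp2, Lrat, Retsat, Rdh7 and Aldh1a1. Scarb1 and Dgat2 are named only.

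Bco1 (ENSMUSG00000031845, chr8:117095854-117133720, plus strand, GRCm38), the enzyme that splits beta-carotene into retinal, overlapped control only 6 h after 15 Gy, and there through 1 library. It was low in the other 7 treated groups. Levels are given as CPM, read counts scaled to the size of each library. The 15 Gy 6 h libraries had 17.4, 50.4 and 12.3 CPM of Bco1, against 44.2, 41.4 and 41.5 CPM in control libraries. One of those irradiated libraries lay above all controls and the others below them, so the groups overlapped. Bco1 stood at 3.25, 1.76 and 1.91 CPM at 6 h after 6 Gy, and at 1.69, 0.995 and 0.623 CPM at 3 d after 15 Gy. In the 6 Gy 24 h libraries it had 1.35, 0.959 and 0.877 CPM, and in those given 6 Gy with CBLB502 0.611, 2.23 and 1.16 CPM. All 12 of these libraries lay far below the lowest control.

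**Figure D1:**
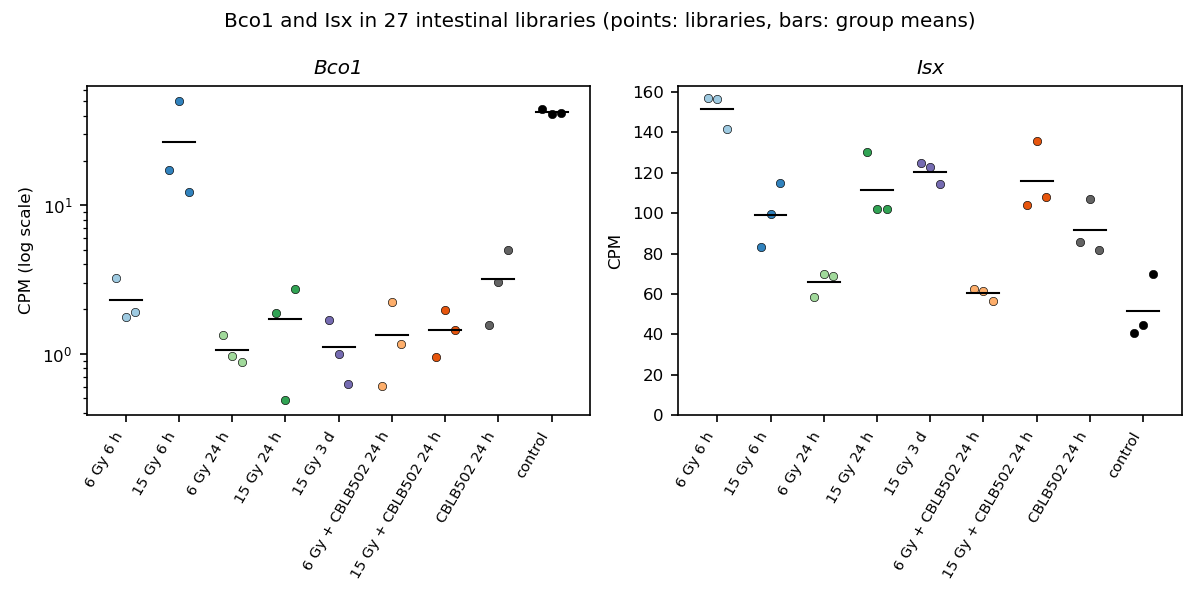
Bco1 (left, CPM on a log scale) and Isx (right, CPM on a linear scale from 0) in 27 libraries, with 1 point per library and a bar at each group mean. The 15 Gy 6 h libraries of Bco1, at 17.4, 50.4 and 12.3 CPM, stand above the other treated libraries. Only the second of them reaches the control libraries, at 41.4 to 44.2 CPM. Isx is lowest in control on average.

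At 24 h after 15 Gy, the contrast known when the genes were chosen, Bco1 had 1.89, 0.489 and 2.72 CPM, and with CBLB502 before 15 Gy it had 0.949, 1.97 and 1.44 CPM. CBLB502 without radiation gave 1.57, 3.05 and 5.02 CPM. The unirradiated CBLB502 libraries all lay below the 3 controls. The log2 fold changes against control were -4.20 ± 0.64 (SE) at 6 Gy 6 h (adjusted p = 4.35e-05, edgeR's quasi-likelihood test with Benjamini-Hochberg adjustment) and -5.32 ± 0.68 at 6 Gy 24 h (adjusted p = 2.22e-05). They were -5.26 ± 0.68 at 15 Gy 3 d (adjusted p = 7.61e-06) and -3.72 ± 0.63 for CBLB502 alone (adjusted p = 0.00185). With CBLB502 they were -4.99 ± 0.67 at 6 Gy (adjusted p = 2.84e-05) and -4.86 ± 0.66 at 15 Gy (adjusted p = 0.000103). Each of these 6 calls held with any 1 library left out. At 15 Gy 24 h the log2 difference was -4.64, given as a description. At 15 Gy 6 h the value of -0.67 ± 0.56 did not pass (adjusted p = 0.398). All these comparisons use the same 3 control libraries, so they are not independent of each other or of the contrast that led to the choice of Bco1. Those libraries also helped Bco1 pass the filter on low values. Leaving out 1 library does not remove that dependence. In bulk tissue, fewer cells of a type and less RNA per cell cannot be told apart.

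Clock genes also differed among the groups. A score taken from an earlier analysis of these data sets the mean log2 level of Arntl, Npas2 and Nfil3 against that of Tef, Dbp, Cry2, Per1, Per2 and Per3, which peak at another time of day. The groups with the highest mean Bco1 had low scores, at -2.97, -2.45 and -1.44 in 15 Gy 6 h libraries and -2.41, -2.09 and -2.79 in control libraries. Scores were 2.98, 2.04 and 2.01 at 6 Gy 6 h and 2.85, 1.61 and 1.72 at 15 Gy 3 d. With CBLB502 and 15 Gy they were 2.94, 2.90 and 0.73, and at 15 Gy 24 h 3.81, -0.26 and -0.23. They were -1.03, -1.21 and -1.18 with 6 Gy and CBLB502 and -0.41, -0.35 and -0.18 at 6 Gy 24 h. The CBLB502 libraries scored -1.06, -2.63 and -0.89. The library at -2.63 lay within the control range and the others lay above it. Bco1 in these libraries was 1.57, 3.05 and 5.02 CPM. The part of sampling time in the Bco1 values was not tested. Summed proximal small intestine markers (Gata4, Onecut2, Pdx1, Cybrd1 and Lct, 5 of 5 detected in each group) were not low in every group that was low in Bco1. They ran from 3177 to 3520 CPM at 15 Gy 24 h and from 1551 to 1787 CPM with CBLB502 alone, against 2504 to 3267 CPM in control. Summed distal markers (Fabp6, Slc10a2, Fgf15, Slc51a, Slc51b, Cubn and Osr2) ran from 984 to 1469 CPM in control, where Fabp6 and Fgf15 had no count. They overlapped control at 15 Gy 6 h (700 to 1101 CPM) and 15 Gy 24 h (779 to 1021 CPM). In every other treated group, all low in Bco1, they lay wholly below control. The part of the gut segment in the Bco1 values was not tested.

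Isx (ENSMUSG00000031621, chr8:74873173-74893506, plus strand), the homeobox repressor of Bco1 and Scarb1, passed the test as higher than control in 5 treated groups, and was also above control at 15 Gy 24 h, with its highest level 6 h after 6 Gy. The 6 Gy 6 h libraries had 157, 156 and 142 CPM and the 15 Gy 6 h libraries 83.4, 99.4 and 115 CPM, against 40.8, 44.5 and 69.6 CPM in control libraries. All 6 irradiated libraries at 6 h lay above the highest control. The rises were 1.56 ± 0.17 (adjusted p = 1.08e-06) and 0.94 ± 0.17 (adjusted p = 0.000309) on the log2 scale. Isx had 125, 123 and 114 CPM at 15 Gy 3 d, a rise of 1.22 ± 0.17 (adjusted p = 1.99e-05). With CBLB502 before 15 Gy it had 104, 136 and 108 CPM, a rise of 1.17 ± 0.17 (adjusted p = 0.000217). Both groups lay wholly above control. The 15 Gy 24 h libraries had 130.3, 102 and 102 CPM, again above every control.

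With CBLB502 alone Isx had 85.9, 107 and 81.6 CPM, a rise of 0.83 ± 0.17 (adjusted p = 0.00786) with no overlap with control. The call was lost without control replicate 1 (0.69, adjusted p = 0.0569) and without CBLB502 replicate 2 (0.70, adjusted p = 0.0541). The libraries of 6 Gy with CBLB502 had 62.6, 61.5 and 56.6 CPM and the 6 Gy 24 h libraries had 58.5, 69.7 and 69.0 CPM, all within or near the control range of CPM. Neither group passed edgeR's test (adjusted p = 0.319 with CBLB502 and 0.119 without). Limma on log2(FPKM + 1), a scale on which the median of all genes lies higher in these groups, called Isx in both (0.83 with CBLB502, adjusted p = 0.00169, and 0.92 without, adjusted p = 0.000855). Without control replicate 3, the control library highest in Isx, they passed in edgeR too, at 0.51 with CBLB502 (adjusted p = 0.0139) and 0.64 without (adjusted p = 0.00395).

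Set per unit of length, Bco1 was 14.7, 35.7 and 7.53% of Isx in 15 Gy 6 h libraries, against 76.4, 65.5 and 42.0% in control libraries, by FPKM, a level scaled to gene length and library depth. The share lay between 0.336 and 4.33% in the other 21 libraries. At 15 Gy 6 h Isx lay above every control library, while Bco1 overlapped control through its second library (50.4 CPM) and was lower than control in the others. The part of Isx in the Bco1 values was not tested. By FPKM, Isx lay above every control library at 6 Gy 24 h as well, with 38.8, 43.8 and 47.7 FPKM, against 18.02, 19.9 and 30.9 FPKM in control libraries. By CPM that group overlapped control. The median log2 change of all genes there lies 0.38 higher by FPKM than by scaled counts.

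**Figure D2:**
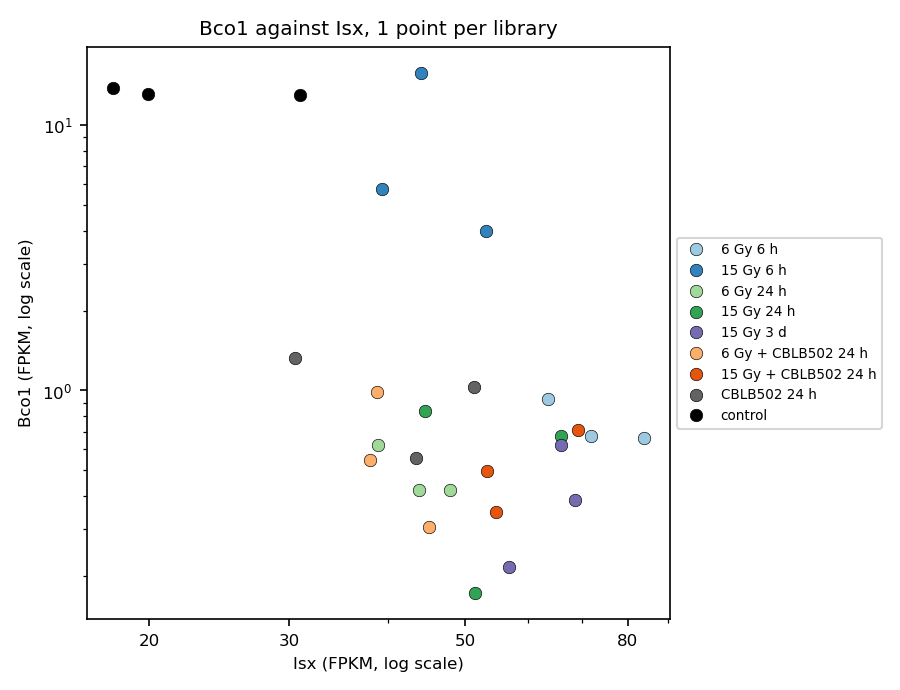
Bco1 against Isx in FPKM, both axes on log scales, with 1 point per library coloured by group. The 15 Gy 6 h libraries sit at the upper middle and control libraries at the upper left, and the other libraries lie lower down at middle and high Isx.

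Scarb1 (chr5:125277087-125341094, minus strand), the scavenger receptor that takes up carotenoids and cholesterol, varied so much among libraries of a group that no comparison passed the edgeR test. CBLB502 libraries had 45.6, 105 and 14.9 CPM, against 2.47, 5.82 and 11.6 CPM in control libraries. The 3 CBLB502 libraries lay above all 3 controls, and the log2 difference of 3.06 ± 1.15 did not pass (adjusted p = 0.119), although DESeq2 called it (3.07, adjusted p = 0.0364). Within a group the highest and lowest library differed by up to 20.3-fold. That widest spread was at 15 Gy 24 h, with 1.69, 22.0 and 1.08 CPM, and there was a similar one at 15 Gy 3 d, with 26.0, 5.17 and 1.96 CPM. The 6 Gy 24 h libraries had 25.5, 15.9 and 19.4 CPM and those given 6 Gy with CBLB502 16.7, 14.3 and 15.2 CPM, all above control, with values that did not pass the test (adjusted p = 0.264 and 0.399). In order of group means, every pair of neighbours overlapped.

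Read across the 9 genes together, the counts of members called stood as follows, with the share of all tested genes called in the same comparison beside each. Bco1 is among the members called lower in every group except 15 Gy 6 h. It was chosen for a low level against these same control libraries, which also helped it pass the filter. The counts that hold it are therefore not independent of that choice. At 6 Gy 6 h 6 members were called, against 28.4% of all genes, and 5 of the 6 were lower, as were 15.3% of all genes. At 15 Gy 6 h 5 were called, against 29% of all genes, and all 5 were higher, as were 12.2%. At 6 Gy 24 h 5 were called, against 33%, with 3 higher, against 16.6% of genes, and 2 lower, against 16.4%. At 15 Gy 3 d 7 were called, against 29.4%, and 6 of the 7 were lower, as were 15.6%. CBLB502 alone had 2 called members, against 5.74% of genes. With CBLB502 and 6 Gy 3 were called, against 37.3%, all of them lower, as were 17.5% of genes, while 19.8% were higher. With CBLB502 and 15 Gy 6 were called, against 16.9%, of which 4 were higher, against 8.65%, and 2 lower, against 8.2%. At 15 Gy 24 h 3 members passed, 1 higher and 2 lower, against 4.94% of genes (2.63% higher and 2.31% lower), and nothing is read from that count.

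These counts moved by more than 1.5 times with single libraries. At 6 Gy 24 h the count was 3 without control replicate 1 or control replicate 2, and at 15 Gy 6 h it was 3 without control replicate 1 or 15 Gy 6 h replicate 3. For CBLB502 alone it was 1 without control replicate 1 or CBLB502 replicate 2, and for 6 Gy with CBLB502 it was 5 without control replicate 3. The median log2 fold change over the 9 members was -1.64 at 15 Gy 3 d, 0.87 at 15 Gy 6 h and -0.47 at 6 Gy 6 h. Over all tested genes the medians in those comparisons were 0.02, 0.02 and 0.05.

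**Figure D3:**
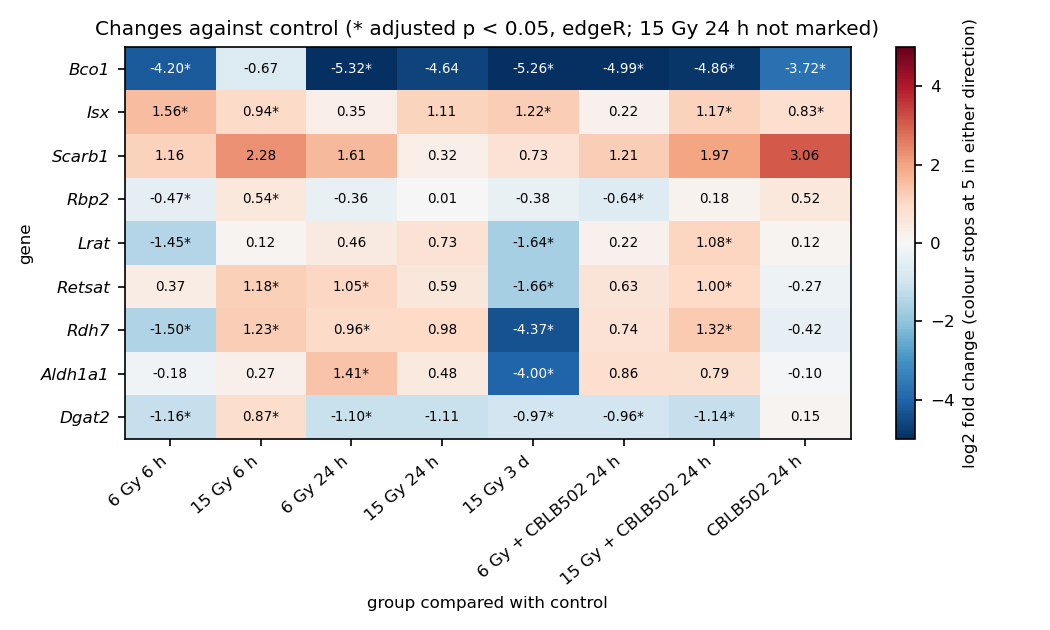
Log2 fold changes of the 9 genes in each treated group against control (rows: genes, columns: groups, red: higher, blue: lower, colour stopping at 5). Asterisks mark an adjusted p under 0.05 in edgeR, and the 15 Gy 24 h column carries none because that contrast was known when the genes were chosen. Bco1 is at -3.72 or lower in 7 columns, and Rdh7 (-4.37) and Aldh1a1 (-4.00) are far below control only at 15 Gy 3 d.

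The retinol-handling enzymes were lowest 3 d after 15 Gy. Rdh7 (chr10:127884028-127888817, minus strand), a short-chain dehydrogenase that oxidises retinol to retinal, had 5.03, 6.00 and 2.59 CPM at 15 Gy 3 d, against 73.3, 74.2 and 135 CPM in control libraries. Its fall of -4.37 ± 0.37 on the log2 scale (adjusted p = 3.85e-08) held with any 1 library left out. Aldh1a1 (chr19:20492715-20643465, plus strand), which oxidises retinal to retinoic acid, had 9.38, 16.8 and 7.47 CPM at 15 Gy 3 d, against 93.1, 132 and 312 CPM in control libraries (-4.00 ± 0.46, adjusted p = 1.95e-06). In both genes the groups were far apart. Retsat (chr6:72598475-72608425, plus strand), which saturates a double bond of all-trans-retinol, had 36.3, 33.3 and 23.5 CPM at 15 Gy 3 d, against 106, 111 and 77.2 CPM in control libraries (-1.66 ± 0.28, adjusted p = 0.000123). Lrat (chr3:82892579-82903973, minus strand), the acyltransferase that forms retinyl esters, had 4.48, 7.15 and 8.42 CPM at 15 Gy 3 d, against 14.8, 26.2 and 21.5 CPM in control libraries (-1.64 ± 0.30, adjusted p = 0.000363). No library of the 3 d group reached the control range in any of these 4 genes.

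**Figure D4:**
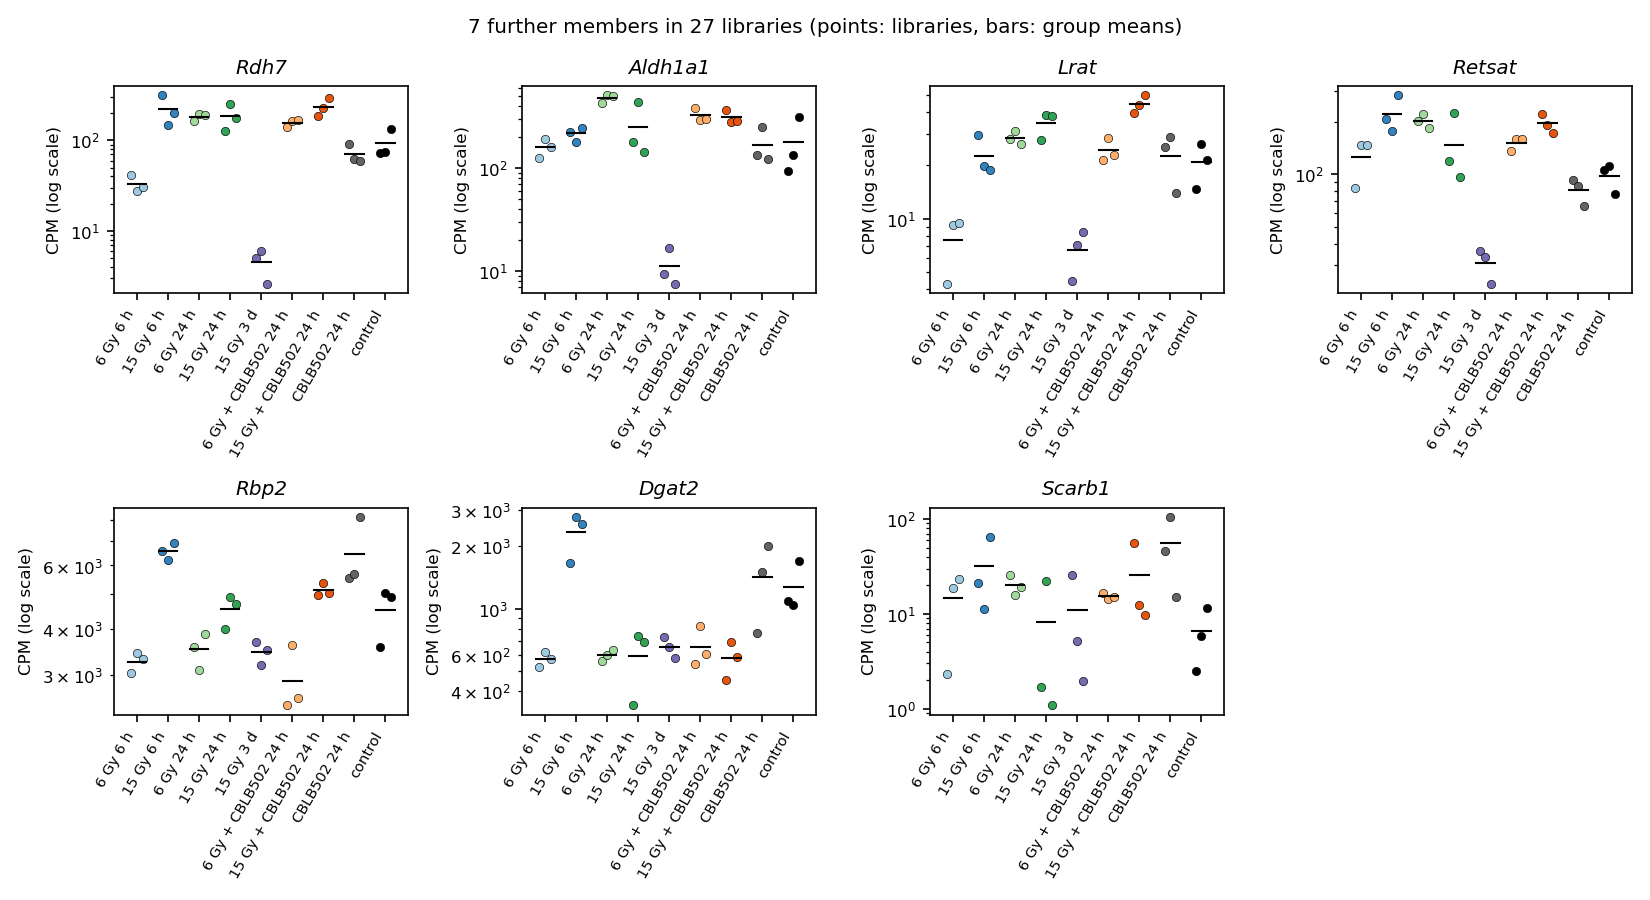
CPM on log scales for Rdh7, Aldh1a1, Lrat, Retsat, Rbp2, Dgat2 and Scarb1 in 27 libraries, with 1 point per library and a bar at each group mean. Rdh7 and Aldh1a1 stand at 16.8 CPM or lower at 15 Gy 3 d, Rbp2 stays within 2.27-fold over all group means, and Scarb1 points scatter widely within groups.

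The same 4 genes were also lower at 3 d than at 24 h after 15 Gy, and they were the 4 members called in that comparison, against 25.3% of all genes (11.2% higher and 14.1% lower). At 15 Gy 24 h Rdh7 had 126, 255 and 177 CPM and Aldh1a1 179.8, 431 and 141 CPM. Those levels put the 3 d libraries -5.35 ± 0.39 below the 24 h libraries in Rdh7 (adjusted p = 4.88e-09) and -4.48 ± 0.47 in Aldh1a1 (adjusted p = 6.08e-07). Lrat differed by -2.37 ± 0.31 (adjusted p = 1.01e-05) and Retsat by -2.24 ± 0.28 (adjusted p = 6.01e-06). These 4 calls held with any 1 library left out. Markers of the absorptive cell and of the segment are set beside these values. Summed enterocyte markers (10 of 10 detected in each group) ran from 83754 to 118890 CPM at 15 Gy 3 d, against 116353 to 143092 CPM in control, so the ranges overlapped. Summed proximal markers ran from 644 to 1083 CPM at 15 Gy 3 d, against 2504 to 3267 CPM in control. Their part in the 3 d values was not tested.

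Some of these counts cannot be fully assigned to 1 gene. Of the 50-base stretches in Rdh7 transcripts, 13.2% also occur in transcripts of neighbouring family members such as Rdh1, Rdh16 and Rdh9. The share is 6.54% for Aldh1a1, all of it with Aldh1a7, and 7.52% for Retsat, all with an overlapping transcript on the other strand. The strand setting of the counting was not stated, so reads from the stretches that Retsat shares with that transcript cannot be told apart. The share is 1.66% for Bco1, spread over many genes, and 0.197% for Scarb1. Lrat overlaps an antisense gene but shares no 50-base stretch with it on either strand. For Isx, Rbp2, Lrat and Dgat2 no stretch was shared.

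Rbp2 (chr9:98486115-98509781, plus strand), the cellular retinol-binding protein of the enterocyte, was by far the most abundant member per unit of length, at 2290 to 5973 FPKM over all libraries. The 15 Gy 6 h libraries had 6587, 6196 and 6933 CPM and the 6 Gy 6 h libraries 3038, 3439 and 3312 CPM, against 3584, 5026 and 4923 CPM in control libraries. The groups did not overlap, and control lay between the doses. Against control the changes were 0.54 ± 0.17 at 15 Gy 6 h (adjusted p = 0.0207) and -0.47 ± 0.17 at 6 Gy 6 h (adjusted p = 0.0445). The call at 15 Gy 6 h was lost without control replicate 1 (0.41, adjusted p = 0.109) or without 15 Gy 6 h replicate 3 (0.50, adjusted p = 0.0645). The call at 6 Gy 6 h was lost without control replicate 2 (-0.38, adjusted p = 0.159) or 3 (-0.40, adjusted p = 0.127), and without 6 Gy 6 h replicate 1 (-0.41, adjusted p = 0.126), 2 (-0.51, adjusted p = 0.0713) or 3 (-0.48, adjusted p = 0.0913). Rbp2 was also lower with 6 Gy and CBLB502, at 2470.0, 3616 and 2588 CPM (-0.64 ± 0.17, adjusted p = 0.00625), though the group overlapped control, and limma on FPKM put it at -0.05.

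Dgat2 (chr7:99153658-99182719, minus strand), an acyltransferase of triglyceride synthesis that can also esterify retinol, was highest 6 h after 15 Gy and lowest 6 h after 6 Gy. The 15 Gy 6 h libraries had 1667, 2765 and 2567 CPM and the 6 Gy 6 h libraries 520.2, 615 and 571 CPM, against 1084, 1042 and 1699 CPM in control libraries. The lower dose was below every control, while the higher dose overlapped control by its first library. The fall at 6 Gy 6 h was -1.16 ± 0.31 (adjusted p = 0.00661) and held with any 1 library left out. The rise at 15 Gy 6 h of 0.87 ± 0.30 (adjusted p = 0.0362) was lost without control replicate 1 (0.77, adjusted p = 0.115) or 2 (0.75, adjusted p = 0.128), and without 15 Gy 6 h replicate 2 (0.73, adjusted p = 0.115) or 3 (0.80, adjusted p = 0.0982). Dgat2 had 557, 599 and 630.5 CPM at 6 Gy 24 h and 729, 650.1 and 576 CPM at 15 Gy 3 d, both below every control. These falls were -1.10 ± 0.31 (adjusted p = 0.00947) and -0.97 ± 0.30 (adjusted p = 0.0207). Without control replicate 3, the control library highest in Dgat2, neither passed (-0.82, adjusted p = 0.0552, and -0.70, adjusted p = 0.117). The second was also lost without 15 Gy 3 d replicate 2 (-0.97, adjusted p = 0.0555) or 3 (-0.89, adjusted p = 0.0721). Dgat2 had 341, 735 and 692 CPM at 15 Gy 24 h.

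The 2 doses at 6 h differed from each other in 7 of the 9 members, against 43.2% of all genes tested, with 6 higher at 15 Gy, against 20.2%, and 1 lower, against 23%. At that time Bco1 was higher with 15 Gy than with 6 Gy by 3.54 ± 0.62 on the log2 scale (adjusted p = 0.0001). Bco1 passed the filter on low values with help from the 15 Gy 6 h libraries and none from the 6 Gy 6 h libraries. Neither its p-value nor its place in the count is therefore independent of the filter. Rdh7 was higher by 2.73 ± 0.34 (adjusted p = 1.8e-06), with 314, 148 and 203 CPM at 15 Gy 6 h and 41.9, 27.9 and 30.2 CPM at 6 Gy 6 h. Dgat2 was higher by 2.04 ± 0.31 (adjusted p = 2.22e-05), Lrat by 1.57 ± 0.30 (adjusted p = 0.000264) and Rbp2 by 1.01 ± 0.17 (adjusted p = 6.59e-05). Isx went the other way, at -0.61 ± 0.17 (adjusted p = 0.00592). These 6 calls held with any 1 library left out, and the libraries of the 2 doses did not overlap in any of the 6 genes. The share of all genes without such overlap was not counted, so nothing is read from its absence here.

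Retsat was higher with 15 Gy by 0.81 ± 0.27 (adjusted p = 0.019), with 206, 176 and 283 CPM at 15 Gy 6 h and 82.9, 148 and 148 CPM at 6 Gy 6 h. That call was lost without 6 Gy 6 h replicate 1 (0.58, adjusted p = 0.112) or 15 Gy 6 h replicate 3 (0.59, adjusted p = 0.116). Summed enterocyte markers differed in the same direction, at 153063 to 173459 CPM in 15 Gy 6 h libraries and 57471 to 66596 CPM in 6 Gy 6 h libraries. The clock score stood at -2.97 to -1.44 in 15 Gy 6 h libraries and 2.01 to 2.98 in 6 Gy 6 h libraries. The mitochondrial share of counts was 4.59 to 9.03% in 15 Gy 6 h libraries and 13.7 to 28.7% in 6 Gy 6 h libraries, without overlap, against 11.8 to 17.8% in control. The part of these measures in the dose difference was not tested.

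Against control, the doses at 6 h divided the remaining members. At 6 Gy 6 h Rdh7 was lower by -1.50 ± 0.33 on the log2 scale (adjusted p = 0.00152), and Lrat, at 4.29, 9.21 and 9.40 CPM, fell by 1.45 ± 0.30 (adjusted p = 0.00108). Both calls held with any 1 library left out. At 15 Gy 6 h Retsat rose by 1.18 ± 0.27 (adjusted p = 0.0026), which also held. Rdh7 rose there by 1.23 ± 0.32 (adjusted p = 0.00683), a call lost without 15 Gy 6 h replicate 1 (0.90, adjusted p = 0.0505), the library with 314 CPM. Lrat, at 29.4, 19.8 and 18.8 CPM at 15 Gy 6 h, overlapped control. Aldh1a1 overlapped control at both doses.

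From 6 h to 24 h after 15 Gy, 3 members fell and 0 rose, against 32.2% of all genes called (18.7% higher and 13.5% lower). One of the 3 was Bco1, at a log2 difference of -3.97, which is a description because the low 24 h values had led to the choice of the genes. The 24 h libraries were lower in Dgat2 by -1.98 ± 0.31 (adjusted p = 5.95e-05). Rbp2 was lower by -0.53 ± 0.17 (adjusted p = 0.0205), a call lost without 15 Gy 24 h replicate 1 (-0.45, adjusted p = 0.0892) or 15 Gy 6 h replicate 3 (-0.50, adjusted p = 0.0652). Without 15 Gy 24 h replicate 2 the count was 5, since Retsat (-1.04, adjusted p = 0.00423) and Scarb1 (-4.54, adjusted p = 0.0114) then passed. Isx averaged 111 ± 16.4 CPM at 24 h and 99.3 ± 15.7 CPM at 6 h (SD, n = 3 each), and did not pass the test (adjusted p = 0.488).

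The 6 libraries taken 24 h after 6 Gy, with or without CBLB502, stood apart from the others in make-up. All 12 exocrine pancreas markers were detected in both groups, with sums of 208 to 1908 CPM in 6 Gy with CBLB502 and 69.5 to 6512 CPM in 6 Gy alone, against 5.28 to 5.83 CPM in control. In control 8 of the 12 (Amy2a3, Cpa1, Cpb1, Cela2a, Cela3b, Try4, Cel and Pla2g1b) had no count. Fibroblast markers summed to 30.4 to 43.2 CPM and 32.2 to 44.1 CPM in those 2 groups, against 0.562 to 3.07 CPM in control, where Lum was at 0. Enterocyte markers summed to 51404 to 71917 CPM and 56917 to 68220 CPM, against 116353 to 143092 CPM in control. Tissue make-up and irradiation cannot be told apart in these libraries. The scale matters too, since on FPKM the median of all genes lies 0.38 higher at 6 Gy 24 h and 0.40 higher at 6 Gy with CBLB502 than on TMM-scaled counts (0.16 at 15 Gy 3 d and 0.12 at 15 Gy with CBLB502).

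In the 6 Gy 24 h libraries the oxidising and saturating enzymes Aldh1a1, Rdh7 and Retsat were higher than in control. Aldh1a1 had 428, 505 and 498 CPM at 6 Gy 24 h, above all 3 controls (1.41 ± 0.41, adjusted p = 0.0131), but the call was lost without control replicate 1 (1.13, adjusted p = 0.0669) or 2 (1.23, adjusted p = 0.0636). Retsat had 202, 221 and 185 CPM at 6 Gy 24 h (1.05 ± 0.27, adjusted p = 0.00603), a call that held with any 1 library left out. Rdh7 had 164, 195 and 190.2 CPM at 6 Gy 24 h (0.96 ± 0.32, adjusted p = 0.027). Its call was lost without control replicate 1 (0.83, adjusted p = 0.1) or 2 (0.81, adjusted p = 0.112), and without 6 Gy 24 h replicate 2 (0.91, adjusted p = 0.0612) or 3 (0.93, adjusted p = 0.0644). In each of the 3 genes the 6 Gy 24 h libraries lay wholly above control.

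No member passed the test between irradiated mice with and without CBLB502. In the direct comparison of 15 Gy with CBLB502 and 15 Gy alone at 24 h, 0 of 9 members and 0% of all genes were called by edgeR. No member had an unadjusted p under 0.05, and DESeq2 and limma called 0 members as well, although DESeq2 called 63 genes in all. At 6 Gy the count was also 0 of 9, with 0% of all genes, 0 members at an unadjusted p under 0.05, and 0 members in DESeq2 or limma. These tests do not show that the levels were equal. Lrat had 39.3, 43.7 and 49.4 CPM with CBLB502 and 15 Gy and 27.8, 38.2 and 38.0 CPM with 15 Gy alone, and those libraries did not overlap. Retsat had 137, 159 and 159.5 CPM with CBLB502 and 6 Gy and 202, 221 and 185 CPM with 6 Gy alone, again without overlap. Rbp2 at 15 Gy and Aldh1a1 at 6 Gy did not overlap either, while the remaining members did at each dose. The share of all genes without overlap was not counted, so no effect of CBLB502 is read from these values.

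Compared with control instead, the libraries of CBLB502 and 15 Gy were higher in Rdh7 (185, 229.9 and 292 CPM, 1.32 ± 0.32, adjusted p = 0.00844), a call that held with any 1 library left out. They were also higher in Lrat (1.08 ± 0.30, adjusted p = 0.016), which was lost without control replicate 1 (0.88, adjusted p = 0.0923) or 15 Gy with CBLB502 replicate 3 (0.99, adjusted p = 0.054). Retsat had 223, 193 and 172 CPM (1.00 ± 0.27, adjusted p = 0.0146) and Dgat2 452, 694 and 584 CPM (-1.14 ± 0.31, adjusted p = 0.0135). Both were lost without control replicate 3 (0.85, adjusted p = 0.0594, and -0.89, adjusted p = 0.0604) or without 15 Gy with CBLB502 replicate 1 (0.90, adjusted p = 0.0587, and -0.997, adjusted p = 0.0694). Dgat2 had 542, 820.1 and 606 CPM with 6 Gy and CBLB502, below every control (-0.96 ± 0.30, adjusted p = 0.0181). It was lost there without control replicate 3 (-0.68, adjusted p = 0.103), and without 6 Gy with CBLB502 replicate 1 (-0.84, adjusted p = 0.0794) or 3 (-0.90, adjusted p = 0.0619).

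The interaction sets the CBLB502 difference with radiation against the CBLB502 difference without it. At 6 Gy it was called for 1 of 9 members, against 0.324% of all genes, and that member was Bco1 at 4.05 ± 0.85 (adjusted p = 0.0411). This term uses the control libraries whose values led to the choice of Bco1, so its p-value is not independent of that choice. The call ended when control replicate 1 or 2, CBLB502 replicate 1 or 2, any 6 Gy 24 h library, or 6 Gy with CBLB502 replicate 2 or 3 was left out, at 3.46 to 4.26 (adjusted p of 0.0749 to 0.133). CBLB502 without radiation came with a Bco1 level far below control, whereas 6 Gy with CBLB502 (0.611, 2.23 and 1.16 CPM) and 6 Gy alone (1.35, 0.959 and 0.877 CPM) were both already low and overlapped. At 15 Gy 0 members were called, against 0.225% of all genes, with 2 members at an unadjusted p under 0.05, and DESeq2 and limma each called 1. That interaction is built on the 15 Gy 24 h and control libraries whose values led to the choice of the genes, so nothing is read from it, and its Bco1 value of 3.50 is a description. Without control replicate 3 its count was 1. In the 6 Gy interaction Isx passed as well without control replicate 3, at -1.23 (adjusted p = 0.0128).

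Other genes of carotenoid and retinoid handling were read from 7 lists of 62 genes, which hold none of the 9 members and of which 42 genes were tested. At 15 Gy 3 d 20 of the 42 fell and 3 rose, with a median log2 fold change of -0.36, against 15.6% of all tested genes lower, 13.9% higher and a median of 0.02. At 6 Gy 6 h 9 fell and 8 rose, against 15.3% of all genes lower and 13.1% higher, with a median of 0.01. At 15 Gy 6 h 13 rose and 1 fell, against 12.2% higher and 16.8% lower, with a median of 0.37. With CBLB502 alone 5 fell and 0 rose, against 3.26% lower and 2.48% higher, with a median of -0.18. That last count rested on single libraries: it was 0 without control replicate 1 or CBLB502 replicate 1, 1 without control replicate 2 or CBLB502 replicate 2, and 2 without control replicate 3. The 8 rises at 6 Gy 6 h became 3 without 6 Gy 6 h replicate 2, and 5 without 6 Gy 6 h replicate 3, control replicate 2 or control replicate 3.

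Among uptake genes, 3 of 5 fell at 15 Gy 3 d, where 15.6% of all tested genes were lower and 13.9% higher. Npc1l1, the cholesterol importer, averaged 476 ± 171 CPM at 15 Gy 3 d and 512 ± 113 CPM at 6 Gy 6 h, against 1858 ± 524 CPM in control (SD, n = 3 each). Its falls were -1.96 (adjusted p = 1.16e-05) and -1.86 (adjusted p = 1.76e-05). Plb1, a brush border phospholipase that also splits retinyl esters, ranged from 3.64 to 146 CPM among control libraries alone, and its calls at 15 Gy 3 d and 15 Gy 6 h were lost without control replicate 1 (-3.95, adjusted p = 0.136, and -5.50, adjusted p = 0.058). The first was also lost without 15 Gy 3 d replicate 1 (-5.96, adjusted p = 0.0844) or 2 (-6.07, adjusted p = 0.0852), and the second without 15 Gy 6 h replicate 3 (-7.41, adjusted p = 0.0518). Pnlip, the pancreatic lipase and a marker of exocrine pancreas, ranged from 5.37 to 662 CPM at 6 Gy 24 h, against 0 to 0.0596 CPM in control.

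Of the 16 tested genes that interconvert retinol and retinal, 6 fell and 3 rose at 15 Gy 3 d, against the same 15.6% and 13.9% of all genes. Dhrs3, a retinal reductase, averaged 4.72 ± 2.58 CPM at 6 Gy 6 h, 40.7 ± 3.54 CPM at 15 Gy 6 h and 10.1 ± 1.78 CPM at 15 Gy 3 d, against 24.0 ± 4.67 CPM in control. The falls at 6 Gy 6 h (-2.35, adjusted p = 5.98e-07) and 15 Gy 3 d (-1.25, adjusted p = 0.000513) held with any 1 library left out. Adh4, an alcohol dehydrogenase that accepts retinol, averaged 0.764 ± 0.460 CPM at 6 Gy 6 h and 0.823 ± 0.477 CPM at 15 Gy 3 d, against 4.59 ± 0.870 CPM in control (-2.58, adjusted p = 0.00233, and -2.47, adjusted p = 0.00306). Dhrs9, a retinol dehydrogenase, went the other way at 15 Gy 3 d, with 6.21 to 21.4 CPM, against 1.02 to 1.98 CPM in control (2.88, adjusted p = 0.000723). Rdh16f2, a relative of Rdh7, fell by 2.32 at 15 Gy 3 d (adjusted p = 0.00103) and rose by 1.59 at 15 Gy 6 h (adjusted p = 0.0129).

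**Figure D5:**
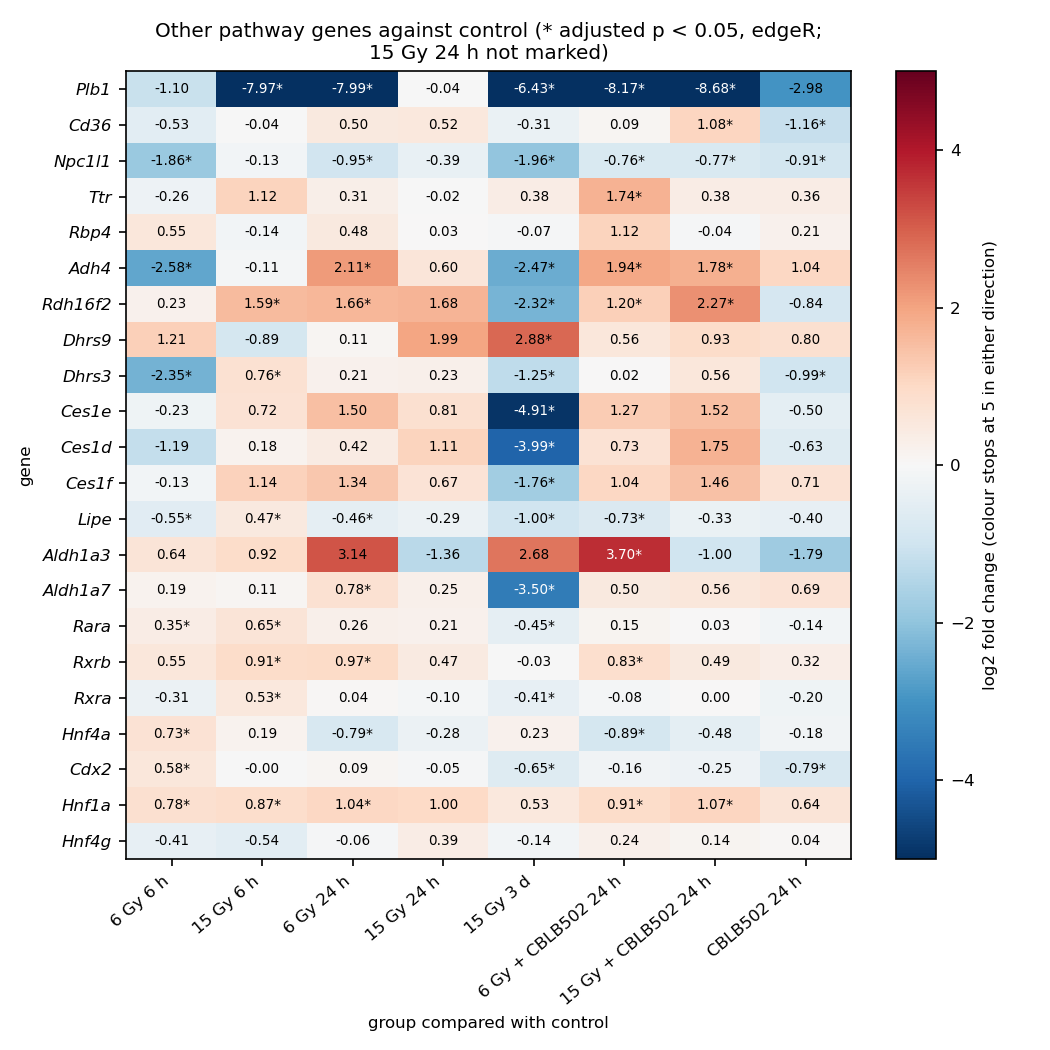
Log2 fold changes of other pathway genes in each treated group against control (rows: genes chosen by the range of their group means, columns: groups, colour stopping at 5, asterisks: adjusted p under 0.05 in edgeR, with none placed in the 15 Gy 24 h column). Pnlip and Rbp7, which have groups without a count, are left out. Ces1e (-4.91), Ces1d (-3.99) and Aldh1a7 (-3.50) are far below control at 15 Gy 3 d.

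Of 7 tested genes of ester synthesis and hydrolysis, 6 fell at 15 Gy 3 d and 0 rose, against 15.6% of all tested genes lower and 13.9% higher. One of the 6, Ces1f, lost its call without control replicate 3 (-0.59, adjusted p = 0.479), and without 15 Gy 3 d replicate 1 (-1.94, adjusted p = 0.0619), 2 (-1.69, adjusted p = 0.103) or 3 (-1.65, adjusted p = 0.107). The carboxylesterase genes Ces1e and Ces1d averaged 0.237 ± 0.291 and 0.553 ± 0.318 CPM at 15 Gy 3 d, against 7.08 ± 5.64 and 8.81 ± 10.6 CPM in control (-4.91, adjusted p = 0.000113, and -3.99, adjusted p = 0.000309). Lipe, the hormone-sensitive lipase, fell by 1.00 there (adjusted p = 0.000188). Aldh1a7, the close paralog of Aldh1a1, averaged 2.36 ± 0.507 CPM at 15 Gy 3 d, against 26.7 ± 4.42 CPM in control (-3.50, adjusted p = 6.11e-08), and shares sequence with Aldh1a1. Rbp7, a cellular retinol-binding protein of endothelium and fat, had no count in the 3 libraries of 15 Gy 3 d, against 0 to 1.33 CPM in control. Taking 3 counts over the 3 d group as the floor, its level was at least 62.9-fold below the control mean of 0.761 CPM. That bound covers counting alone and not the spread among control libraries, which reached down to 0 and so overlapped the 3 d group.

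Among the retinoid receptors, 3 of 6 were tested. Rara, a retinoic acid receptor, rose by 0.65 at 15 Gy 6 h (adjusted p = 0.000535) with 28.5 to 35.8 CPM, against 20.1 to 21.2 CPM in control. At 15 Gy 3 d it had 14.2 to 15.9 CPM, a fall of 0.45 (adjusted p = 0.00941) that limma on FPKM did not call (-0.16, adjusted p = 0.352). The retinoic acid hydroxylase Cyp26a1 and the receptor Rarb, which retinoic acid is known to induce, did not pass the filter, with highest FPKM values of 0.0413 and 0.019 in any library. Aldh1a2, another retinal dehydrogenase, reached at most 0.425 FPKM. Of 6 transcription factors of the intestinal epithelium, 4 rose and 0 fell at 6 Gy 6 h, among them Hnf4a (0.73, adjusted p = 0.00673, and 0.0502 with the 2 groups fitted alone), against 13.1% of all genes higher and 15.3% lower. Without 6 Gy 6 h replicate 2 the count was 1, and without control replicate 3 it was 2.

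The order of group means, from high to low, differed from gene to gene. Bco1 ran 39.9-fold from control to 6 Gy 24 h, and 1 of the 8 pairs of neighbours in that order was free of overlap, between 15 Gy 6 h and CBLB502 alone. Rdh7 ran 51.8-fold from 15 Gy with CBLB502 to 15 Gy 3 d, with 3 pairs free of overlap, and Aldh1a1 42.5-fold from 6 Gy 24 h to 15 Gy 3 d, with 2. Isx spanned 2.94-fold from 6 Gy 6 h to control, with 2 such pairs. Rbp2 spanned 2.27-fold, Dgat2 4.10-fold, Lrat 6.61-fold and Retsat 7.15-fold. Among these 4, Dgat2 had 1 pair of neighbours free of overlap and the others 2 each. The 8.35-fold span of Scarb1, from CBLB502 alone to control, held no such pair. Pairs free of overlap were not counted over all genes, so nothing is read from their number.

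Genes with the profile closest to Bco1 and Isx were found by the root mean square difference of centred log2 CPM over the 27 libraries, among 9331 named genes. Nearest to Bco1 were Aspg (1.26), Dusp9 (1.28), Plek2 (1.34), Slc41a3 (1.35) and Trib3 (1.36), against a median of 2.06 for all genes, so even the nearest was far from it. Aspg averaged 6.15 CPM at 15 Gy 6 h and 2.96 CPM with CBLB502 alone, against 7.47 CPM in control, and Trib3 41.8 CPM and 25.9 CPM, against 41.0 CPM. Nearest to Isx were Ppp1r14d (0.27), Tmc5 (0.30), Tmprss4 (0.30), Ociad1 (0.30) and Baiap2l1 (0.30), against a median of 0.69. Ppp1r14d averaged 199 CPM at 6 Gy 6 h and 63.3 CPM with 6 Gy and CBLB502, against 65.1 CPM in control.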

How the data were processed

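RNA-seq of mouse intestine gave 27 libraries, 3 in each of 9 groups set by the sample labels. The deposited table holds raw read counts per gene and FPKM values made by the authors, in which 0.0001 stands in place of 0. Per the submitters' processing notes, Bowtie 0.12.2, HISAT2 2.0, StringTie 1.3.0 and the build mm8 were named without their roles. The gene coordinates in the table are those of GRCm38, while counting tool, strand setting and annotation were not stated. Total counts were 57.4 to 87.1 M per library.

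Testing was kept to the 11118 genes, of 55401, whose FPKM was 1 or more in 3 or more libraries. Another 23888 genes were without a count throughout. The main test was edgeR 4.0.16 (R 4.3.3), with TMM scaling and quasi-likelihood F tests on the counts, 1 mean per group over all 27 libraries, and Benjamini-Hochberg adjustment over all tested genes within each comparison. Genes were called at an adjusted p under 0.05. The standard error is the size of the log2 fold change over the square root of F. The common dispersion was 0.0961, a biological coefficient of variation of 31%. There were 13 comparisons of 2 groups and 2 interactions. Alternatives used DESeq2 1.42.0, limma 3.58.1 on log2(FPKM + 1), other scaling and filters, fewer libraries and a replicate term. The scripts were tested on simulated data.

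Named are all 9 members, up to 4 tested genes of each pathway list with the widest range of group means, and the 5 genes with profiles nearest to Bco1 and to Isx, without predicted genes. The members and lists were chosen with earlier results of these data known. Promoter windows came from RefSeq on GRCm38.p6.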

Additional observations from a re-analysis of the deposited data

Results flagged for a closer look

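One result met a rule for a closer look: edgeR called the interaction of CBLB502 and 6 Gy for Bco1. The control libraries in this term led to the choice of Bco1 and helped it pass the filter. Its p-value is therefore not independent of that choice, and the values below are a description. With 6 Gy, Bco1 averaged 1.33 ± 0.822 CPM with CBLB502 and 1.06 ± 0.251 CPM without it. Without radiation, it averaged 3.21 ± 1.73 CPM with CBLB502 and 42.4 ± 1.57 CPM in control (SD, n = 3 each). The difference of the log2 differences was 4.05 ± 0.85 (adjusted p = 0.0411, edgeR interaction term). Leaving out control replicate 1 or 2, CBLB502 replicate 1 or 2, any 6 Gy 24 h library, or 6 Gy with CBLB502 replicate 2 or 3 ended the call, with values of 3.46 to 4.26 and adjusted p of 0.0749 to 0.133. The 6 libraries of 6 Gy at 24 h stand apart in tissue markers, and the part of that in this value was not tested. Groups of 3 libraries are too small for a check of single libraries far from the others.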

How the results depend on the processing

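Of the 70 member values called in at least 1 setting, 819 values under the alternatives kept direction and side of the threshold, 77 lost the call, 26 gained it and 0 changed direction. Another 65 member values were called in no setting, and 26 of those 65 changed sign under at least 1 alternative. Nothing is read from counts at 15 Gy 24 h or in the 15 Gy interaction, which hold the values behind the choice of genes. The 6 Gy interaction and the other comparisons with control use the same control libraries and are not independent of that choice. For 34 values of named pathway genes, 350 kept the call and 92 lost it, and 14 of the 34 were called under every alternative. With the compared groups fitted alone, 2 members were called at 15 Gy 6 h, 0 at 15 Gy 24 h, 1 with CBLB502 alone and 0 in the 6 Gy interaction. DESeq2 called 4 members with CBLB502 alone, 1 in the 15 Gy interaction and 3 in the 6 Gy interaction. Limma on FPKM called 6 members with 6 Gy and CBLB502 and 1 in the 15 Gy interaction. Over the pathway lists, the 20 falls at 15 Gy 3 d became 12 by limma, the 13 rises at 15 Gy 6 h 6 with groups alone, and the 8 rises at 6 Gy 6 h 3 with no filter and 5 with groups alone. The 5 falls with CBLB502 alone became 0 with groups alone, 2 with no filter and 3 without the 6 libraries of 6 Gy at 24 h. The cause was not tested, but fitting groups alone leaves fewer libraries to estimate the spread.

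Leaving out 1 library gave 5 to 6 members at 6 Gy 6 h, 3 to 5 at 6 Gy 24 h, 3 to 5 at 15 Gy 6 h, 2 to 3 at 15 Gy 24 h, 6 to 8 at 15 Gy 3 d, 1 to 2 with CBLB502, 2 to 5 with 6 Gy and CBLB502 and 4 to 6 with 15 Gy and CBLB502. Between groups it gave 6 to 7 for 15 Gy against 6 Gy at 6 h, 2 to 5 for 24 h against 6 h, 4 to 4 for 3 d against 24 h, 0 to 0 for CBLB502 within either dose, 0 to 1 in the 15 Gy interaction and 0 to 2 in the 6 Gy interaction.

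Replicate numbers are shared between groups in the labels, but libraries of the same number did not deviate together. Correlations of deviations were 0.203, -0.051 and 0.139 for 15 Gy 24 h and control, and -0.211, -0.262 and -0.196 for 15 Gy 24 h and 15 Gy 6 h. A replicate block left the count of called members as it was in every comparison except the 6 Gy interaction, where it was 0 (Bco1 4.01, adjusted p = 0.0706). It left 3 of the 5 pathway genes lower with CBLB502 alone.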
